A study of Mus musculus with 12 samples.

Results

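The zinc-response genes described here are *Mt1* and *Mt2*, which encode the metallothioneins of the mouse that most tissues express, *Mtf1*, which encodes the metal-responsive transcription factor MTF-1, and *Slc30a1*, which encodes the zinc exporter ZnT1. They were matched by symbol, and all 4 of the 4 were found among the 48795 genes of the expression tables. RNA was sequenced from C2C12 myotubes, muscle fibre-like cells obtained by keeping the mouse myoblast line C2C12 in low serum for 5 days. Each group had 3 libraries, and all groups share this single line and its culture. All groups had 0.02% DMSO, which the vehicle group received alone for 24 h. The gRc group received 10 µM gRc (ginsenoside Rc, a saponin of ginseng) for 24 h. The H2O2 group received vehicle for 18 h and then 0.25 mM hydrogen peroxide (H2O2) for 6 h, and the gRc+H2O2 group received 10 µM gRc for 18 h and then 0.25 mM H2O2 for 6 h. A tag on the gRc+H2O2 libraries gives 24 h of gRc before H2O2 instead, and the cell type tag reads myoblasts. The labels do not say whether replicates were separate cultures, and a p-value here is therefore set only by how much the libraries differed, part of which may be technical.

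Metallothioneins are small cysteine-rich proteins that bind zinc, copper and cadmium, and their thiols also react with peroxide and other oxidants. MTF-1 is a zinc-finger protein that senses free zinc and binds metal response elements in the promoters of *Mt1*, *Mt2* and *Slc30a1*. ZnT1 sits in the plasma membrane and moves zinc out of the cell, and together with the metallothioneins it keeps free zinc low. Oxidants can release zinc from its protein thiolates, which links peroxide stress to this pathway.

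The genes lie on the forward strand of GRCm38. *Mt2* (ENSMUSG00000031762, chromosome 8, 94172664 to 94173568) stands 5513 bases before *Mt1* (ENSMUSG00000031765, 94179082 to 94180327). The other genes of the cluster, *Mt3* (94152607 to 94154146) and *Mt4* (94137197 to 94139031), lie before *Mt2*, with 18517 bases between *Mt3* and *Mt2*. *Slc30a1* (ENSMUSG00000037434) lies on chromosome 1 at 191906767 to 191913247, and *Mtf1* (ENSMUSG00000028890) on chromosome 4 at 124802104 to 124849800.

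The promoters of the 3 genes that MTF-1 is known to bind are shown from 250 bases before the first base of the gene in RefSeq to the first 30 bases after it (forward strand, GRCm38.p6, sequences from RefSeq). Capitals mark cores of the metal response element, read as TGCACNC or TGCGCNC on either strand. The windows are chr8:94178839-94179118 for *Mt1*, chr8:94172368-94172647 for *Mt2* and chr1:191906531-191906810 for *Slc30a1*.
Mt1: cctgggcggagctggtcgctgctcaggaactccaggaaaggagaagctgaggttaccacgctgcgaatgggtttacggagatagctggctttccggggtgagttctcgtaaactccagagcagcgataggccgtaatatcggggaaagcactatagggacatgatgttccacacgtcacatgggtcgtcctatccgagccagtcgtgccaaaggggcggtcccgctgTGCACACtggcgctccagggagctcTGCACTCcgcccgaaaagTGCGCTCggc
Mt2: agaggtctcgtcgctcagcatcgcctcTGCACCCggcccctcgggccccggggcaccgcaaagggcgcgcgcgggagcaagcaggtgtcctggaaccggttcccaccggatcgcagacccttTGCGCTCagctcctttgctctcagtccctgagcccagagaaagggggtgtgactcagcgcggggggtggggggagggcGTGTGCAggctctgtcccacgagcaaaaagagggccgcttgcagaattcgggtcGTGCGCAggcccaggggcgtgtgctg
Slc30a1: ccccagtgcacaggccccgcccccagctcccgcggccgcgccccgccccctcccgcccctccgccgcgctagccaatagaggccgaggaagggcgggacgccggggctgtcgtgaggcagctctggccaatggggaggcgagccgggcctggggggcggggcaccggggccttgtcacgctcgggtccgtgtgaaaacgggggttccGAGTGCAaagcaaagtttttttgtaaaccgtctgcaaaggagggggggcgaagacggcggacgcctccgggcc

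Over the whole reference window, which runs to 50 bases after the first base, *Mt1* held 3 such cores, *Mt2* held 4 and *Slc30a1* held 2, 1 of them beyond the stretch shown. *Mtf1* held 0. Of 32851 reference windows of this length, 25.7% held at least 1 core, 7.11% at least 2, 1.97% at least 3 and 0.517% at least 4. The core of the antioxidant response element (TGACNNNGC on either strand), the site of the oxidant-responsive factor NRF2, was found once in *Mt2* and once in *Slc30a1* and in 12.4% of all windows. The match in *Mt2*, TGACTCAGC, also spells the AP-1 site TGACTCA, and it overlaps no metal response element core. These matches are letters in a window, and binding was not measured. The *Mt1* cores began at -23, 3 and 21 from the RefSeq start, near the end of its window. Bases past a window and other starts of the genes were not read, so an element there would be missed.

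Library totals ran from 19274762 to 31409066 counts, and 14838 genes with enough counts were tested. Levels are given as normalised counts (CPM, counts scaled to library size), and between genes as TPM, abundances scaled within a library that take transcript length into account. Vehicle replicates 1 and 3 and gRc replicate 3 stood apart in the mean length of their sequenced fragments, at 176, 236 and 247 bases, against 196 to 221 bases in the other libraries. A fit without these 3 leaves 1 vehicle library and 2 gRc libraries, so its tests against vehicle take that lone library to vary like the other groups, and its values against vehicle have no replicate of their own. Markers of differentiated muscle were present in every library: their 8 genes summed to between 12580 and 15460 CPM in vehicle, 13710 and 16450 in gRc, 10580 and 13580 in H2O2, and 10520 and 13660 in gRc+H2O2. The 7 markers of undifferentiated or cycling myoblasts summed to between 244 and 287 CPM in vehicle, 295 and 314 in gRc, 211 and 228 in H2O2, and 197 and 231 in gRc+H2O2, with none of them at 0. Of these 7, *Pax7* and *Id3* fell past the threshold with H2O2 in edgeR (log2 fold changes -1.27 and -1.66 against vehicle, -1.15 and -1.88 after gRc). The other 5 did not pass, among them *Id1* with values above 0 (0.43 and 0.15). Among all genes tested 7.84% fell against vehicle and 8.15% after gRc. Of the 8 muscle markers *Myh8*, a perinatal myosin heavy chain gene, fell with H2O2 after gRc (-0.62, SE 0.18, edgeR adjusted p = 0.0347, lost in 7 of 12 fits without 1 library). The other 7 did not pass there, and 0 of the 8 passed with H2O2 against vehicle. The part of cell composition in the results below was not tested. In a bulk culture, fewer cells of a type and less RNA per cell cannot be told apart.

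Of the metallothioneins, *Mt1* was the most abundant in every library and *Mt2* the next. The vehicle libraries held *Mt1* at 330, 1225 and 1040 TPM and *Mt2* at 25.1, 100.9 and 707 TPM in replicates 1, 2 and 3. *Mt3*, the form known from brain, had between 1 and 7 counts in each library. *Mt4*, the form of stratified epithelia, had 0 counts in 11 libraries and 1 count in H2O2 replicate 1. Neither passed the filter on low counts, so *Mt1* and *Mt2* were the metallothionein genes tested. *Slc30a1* and *Mtf1* were expressed far below the metallothioneins, at 5.55 ± 2.36 and 7.66 ± 1.16 TPM in vehicle (mean ± SD, n = 3).

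*Mt1* rose with H2O2. Its CPM were 92.2, 281 and 237 in the vehicle libraries and 454, 852 and 678 in the H2O2 libraries, so that the highest vehicle library stood below the lowest H2O2 library. The fold change was 3.25 (95% interval 1.82 to 5.81; log2 fold change 1.70, SE 0.38, edgeR adjusted p = 0.0126). Without H2O2 replicate 2, the highest *Mt1* of the H2O2 group, the log2 fold change was 1.47 and its adjusted p by edgeR 0.0515, and with only the groups compared in the fit it was 1.68 with an adjusted p of 0.0785. Vehicle replicate 1 had the lowest *Mt1* of all libraries, and without it the log2 fold change was 1.36 and stayed past the threshold. Without the 3 libraries that stood apart in fragment length it was 1.22 (SE 0.36, edgeR adjusted p = 0.0469), with vehicle replicate 2 as the only vehicle library.

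*Slc30a1* also rose. Its CPM were 22.3, 16.6 and 12.4 in vehicle and 34.7, 40.8 and 39.5 in H2O2, again without overlap of the groups. The fold change was 2.25 (log2 fold change 1.17, SE 0.21, 95% interval 0.71 to 1.63, edgeR adjusted p = 0.00424), and the gene passed the threshold under all 13 other settings and with any 1 library left out. The setting without the 3 libraries that stood apart gave 1.20 from a single vehicle library. *Mtf1*, the gene of the factor itself, stood at 38.7, 30.3 and 34.7 CPM in vehicle and 33.3, 36.9 and 39.6 CPM in H2O2. These ranges overlapped, and the log2 fold change was 0.08 (SE 0.16, 95% interval -0.27 to 0.44, edgeR adjusted p = 0.778). So 2 of the 4 genes rose and 0 fell, where 7.81% of all genes tested rose and 7.84% fell. Groups that did not overlap, with H2O2 above vehicle, were found for the same 2 genes and for 15.9% of all genes tested.

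**Figure D1:**
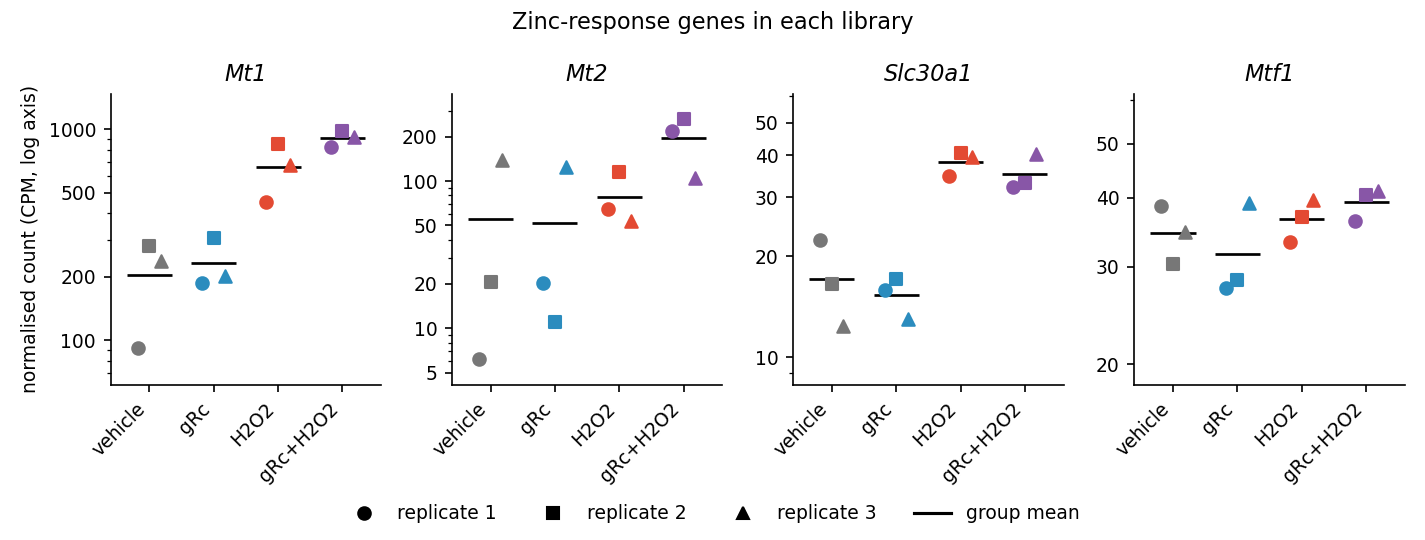
Normalised counts (CPM, log axis) of *Mt1*, *Mt2*, *Slc30a1* and *Mtf1* in each of the 12 libraries by group, with symbols for the replicate number and bars for the group mean (n = 3). *Mt1* and *Slc30a1* sit higher in every H2O2 and gRc+H2O2 library than in every vehicle and gRc library, while *Mt2* in vehicle and gRc spans 6.16 to 139.6 CPM.

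*Mt2* did not pass the test, and its libraries were far apart. In vehicle its CPM were 6.16, 20.5 and 139.6, a span of 22.7 times, against a span of 3.05 times for *Mt1* in the same libraries. In H2O2 they were 64.8, 115 and 53.6. Each H2O2 library stood above vehicle replicates 1 and 2 and below vehicle replicate 3. The log2 fold change was 0.49 (SE 1.04, 95% interval -1.80 to 2.78, edgeR adjusted p = 0.801), an interval that holds both a fall and a rise of over 3-fold. Without vehicle replicate 3 it was 2.52 with an adjusted p of 0.119, and without vehicle replicate 1 it was -0.03. With vehicle replicate 2 as the only vehicle library, when the 3 that stood apart were left out, it was 1.92 (SE 0.60, edgeR adjusted p = 0.0605), and with the replicate number as a block it was 1.45 (SE 1.09, edgeR adjusted p = 0.417), so single libraries set its size and sign.

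The response to H2O2 was also measured in cells that had received gRc. *Mt1* stood at 187, 306 and 202 CPM in gRc and at 826, 986 and 916 CPM in gRc+H2O2, a 3.93-fold rise (log2 fold change 1.97, SE 0.38, edgeR adjusted p = 0.00635). *Slc30a1* stood at 15.9, 17.1 and 13.04 CPM in gRc and at 32.1, 33.1 and 40.3 CPM in gRc+H2O2, a 2.29-fold rise (log2 fold change 1.20, SE 0.21, edgeR adjusted p = 0.00366). Neither gene's groups overlapped, and both passed the threshold with any 1 library left out and without the 3 libraries that stood apart (1.88 and 1.08). Among all genes tested 7.57% rose, 8.15% fell and 19.2% were higher without overlap.

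*Mt2* in the gRc libraries was at 20.4, 11.1 and 125 CPM and in the gRc+H2O2 libraries at 219, 263 and 104 CPM. The gRc replicate 3 library lay above the lowest gRc+H2O2 library, and the log2 fold change of 1.90 had an SE of 1.07 (95% interval -0.45 to 4.26, edgeR adjusted p = 0.279). Without gRc replicate 3 it was 3.61 with an adjusted p of 0.0619, and without the 3 libraries that stood apart it was 3.62 (SE 0.49). With the replicate block it was 2.80 (SE 1.10, edgeR adjusted p = 0.128). *Mtf1* was at 27.5, 28.4 and 39.1 CPM in gRc and at 36.25, 40.4 and 41.1 CPM in gRc+H2O2, with overlap and a log2 fold change of 0.31 (SE 0.16, 95% interval -0.05 to 0.67, edgeR adjusted p = 0.245). Its highest gRc library was replicate 3, and without the 3 libraries that stood apart the value was 0.48 (SE 0.12). *Mt2* and *Mtf1* passed in that fit, which called more genes in this comparison than the fit of all 12 libraries.

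gRc alone was compared with vehicle to see whether the saponin itself moved these genes. None of the 4 passed the test in edgeR. The log2 fold changes were 0.19 for *Mt1* (95% interval -0.63 to 1.00), -0.09 for *Mt2* (-2.37 to 2.20), -0.15 for *Slc30a1* (-0.61 to 0.30) and -0.12 for *Mtf1* (-0.48 to 0.23). All 4 pairs of groups overlapped. For *Slc30a1* and *Mtf1* the intervals left out a 2-fold change in either direction, and for *Mt2* they did not. In this comparison edgeR called 0% of all genes (0 genes, 74 at an unadjusted p under 0.05, and 0 by DESeq2), and 0.869% of genes were higher in gRc without overlap.

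The last pair of groups asks whether gRc before H2O2 changed the level reached with H2O2. *Mt1* averaged 661 ± 199.5 CPM in H2O2 and 909 ± 79.9 CPM in gRc+H2O2, and *Mt2* 78.0 ± 32.98 and 195.5 ± 81.9 CPM (mean ± SD, n = 3). The libraries overlapped for both: the highest *Mt1* of H2O2, 852 CPM, lay above the lowest of gRc+H2O2, 826 CPM. In TPM the *Mt1* libraries did not overlap, with H2O2 at 3569 or below and gRc+H2O2 at 3605 or above. Those of *Mt2* overlapped in TPM too, with H2O2 up to 550.6 and gRc+H2O2 from 479.4. Shares of all genes without overlap were read in CPM only, so the *Mt1* gap in TPM has no such share beside it. The log2 fold change was 0.46 for *Mt1* (SE 0.37, 95% interval -0.36 to 1.28, edgeR adjusted p = 0.922) and 1.33 for *Mt2* (SE 1.05, 95% interval -0.99 to 3.64, edgeR adjusted p = 0.922). For *Slc30a1* it was -0.12 (95% interval -0.58 to 0.33) and for *Mtf1* 0.10 (-0.26 to 0.46). Here too edgeR called 0% of all genes (0 genes, 122 at an unadjusted p under 0.05, and 2 by DESeq2), and 7.69% were higher in gRc+H2O2 without overlap.

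Whether the H2O2 effect itself differed with and without gRc was tested as an interaction. The difference of log2 fold changes, with gRc minus without, was 0.27 for *Mt1* (SE 0.52), 1.41 for *Mt2* (SE 1.47), 0.03 for *Slc30a1* (SE 0.29) and 0.22 for *Mtf1* (SE 0.23). The unadjusted p-values by edgeR were 0.613, 0.358, 0.925 and 0.347. None passed the threshold, as for 0% of all genes (0 genes, 87 at an unadjusted p under 0.05, and 1 by DESeq2). From the lowest to the highest group mean, *Mt1* thus ran vehicle, gRc, H2O2, gRc+H2O2, with differences past the threshold in both comparisons of H2O2 and none in the comparisons of gRc. The order for *Mt2* was gRc, vehicle, H2O2, gRc+H2O2, with no neighbours past the threshold. For *Slc30a1* it was gRc, vehicle, gRc+H2O2, H2O2, at 15.35 ± 2.09, 17.1 ± 4.98, 35.2 ± 4.49 and 38.3 ± 3.23 CPM, and for *Mtf1* gRc, vehicle, H2O2, gRc+H2O2, at 31.7 ± 6.46, 34.55 ± 4.17, 36.6 ± 3.17 and 39.2 ± 2.62 CPM (mean ± SD, n = 3).

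**Figure D2:**
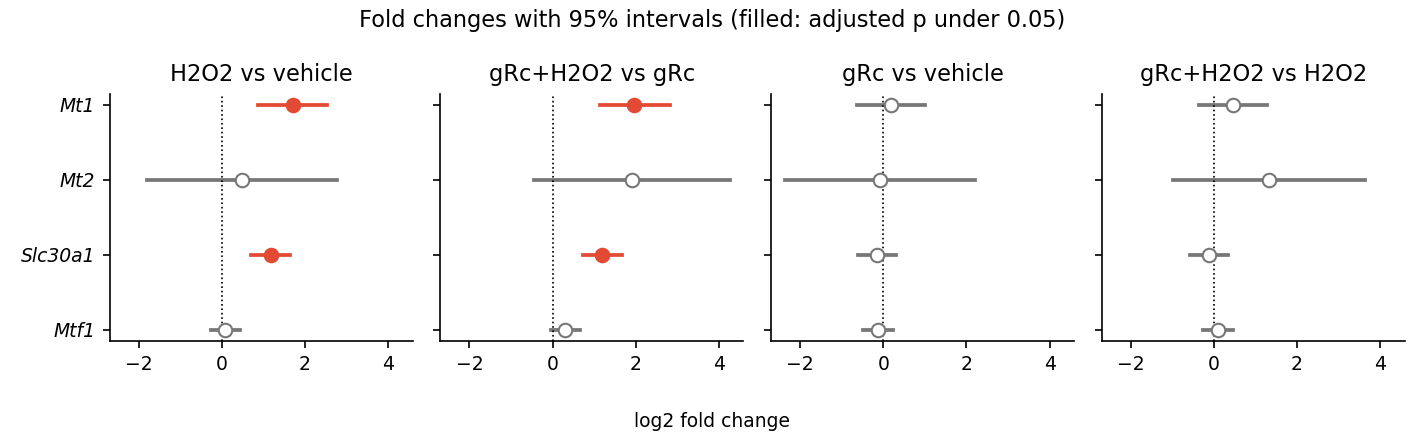
Log2 fold changes (horizontal axis) of the 4 genes in 4 comparisons from edgeR, with bars for the 95% interval and filled symbols for an adjusted p under 0.05. *Mt1* and *Slc30a1* are filled in both comparisons of H2O2, with values from 1.17 to 1.97, and the widest bar in each panel is that of *Mt2*.

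The spread of *Mt2* within treatments ran with the length of the sequenced fragments. The mean fragment length of a library was read from the deposited transcript lengths and effective lengths, and it was 176, 196 and 236 bases in vehicle replicates 1, 2 and 3 and 202, 205 and 247 bases in gRc replicates 1, 2 and 3. In these 2 groups *Mt2* was highest, at 139.6 and 125 CPM, in the library with the longest fragments. In the groups with H2O2 the lengths were 197, 207 and 204 bases and, after gRc, 212, 221 and 204.5 bases, and *Mt2* was again highest where the fragments were longest. The order did not hold for every pair, since gRc replicate 2 and H2O2 replicate 3 had longer fragments and less *Mt2* than replicate 1 of their group. The libraries also differed in base composition, read as the mean log2 deviation of AT-rich genes minus that of GC-rich genes. This value was -0.93, 0.05 and 0.43 in vehicle replicates 1, 2 and 3 and -0.05, -0.19 and 0.53 in gRc. It was -0.31, 0.22 and -0.36 in H2O2 and 0.34, 0.44 and -0.18 in gRc+H2O2. In every group *Mt2* kept the order of this value. Fragment length and base composition were not separated. *Mt1* was also highest at the longest fragments in both groups with H2O2, where it was 454, 852 and 678 CPM without and 826, 986 and 916 CPM with gRc. In the groups without H2O2 it was not: vehicle replicate 3 and gRc replicate 3 stood at 237 and 202 CPM, below replicate 2 of their group.

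The share of *Mt2* in the summed TPM of *Mt1* and *Mt2* showed the same libraries apart. It was 7.06%, 7.61% and 40.5% in vehicle, 11.03%, 3.96% and 41.8% in gRc, 13.96%, 13.4% and 8.24% in H2O2, and 23.2%, 23.4% and 11.5% in gRc+H2O2. RSEM divides a read that matches several genes among them, which leaves fractional counts. Expected counts were within 0.02 of a whole number in all 12 libraries for *Mt1* and for *Mt2*, while for *Mtf1* and for *Slc30a1* this held in 1 of 12 libraries.

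**Figure D3:**
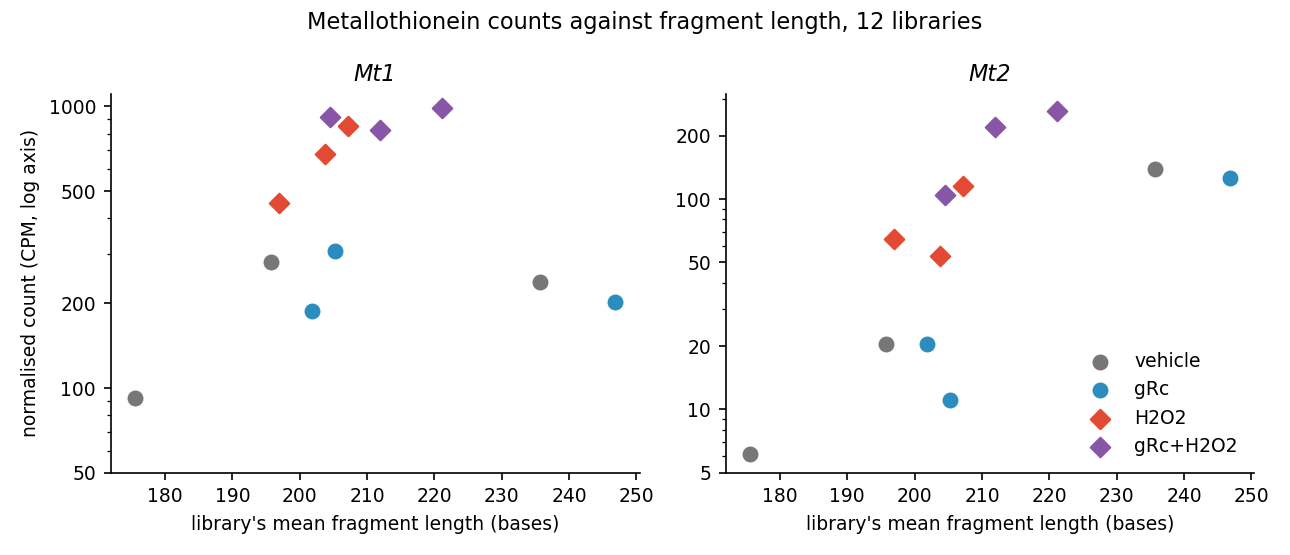
CPM (log axis) of *Mt1* and *Mt2* against the mean fragment length of the library in bases, 1 point per library, with circles for groups without H2O2 and diamonds for groups with H2O2. Leaving vehicle replicate 3 and gRc replicate 3 aside, the H2O2 libraries of both genes lie above the others, and for *Mt2* those 2 libraries, at 236 and 247 bases, lie among them.

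With log2 fragment length as a covariate in the edgeR fit, a choice made after these values were seen, *Mt2* rose by 10.50 on the log2 scale per doubling of fragment length (SE 0.85), rank 76 from the highest among 14838 genes. Only part of that range was sampled, since the longest mean was under a doubling of the shortest. For *Mt1* the slope was 1.43 (SE 1.12), for *Mtf1* 0.47 (SE 0.44) and for *Slc30a1* -1.62 (SE 0.40). Slopes past an adjusted p of 0.05 were frequent, with 27.2% of all genes higher and 26.1% lower where fragments were longer. In that fit the H2O2 effect on *Mt2* was 1.41 against vehicle (SE 0.28, edgeR adjusted p = 0.00193) and 2.85 after gRc (SE 0.28, edgeR adjusted p = 2.2e-05). For *Mt1* these values were 1.72 and 1.99, and for *Slc30a1* 1.23 and 1.15. Calls were frequent with the covariate: 5432 of the 14838 genes passed against vehicle and 5320 after gRc. Without it 2323 and 2332 passed. The effect of gRc before H2O2 on *Mt2* was 0.55 in this fit (SE 0.27, edgeR adjusted p = 1). That of gRc alone against vehicle was -0.89 (SE 0.29, edgeR adjusted p = 0.677). The interaction for *Mt2*, which holds both, was 1.44 (SE 0.38, edgeR adjusted p = 0.501). *Mtf1* stayed at 0.07 and 0.33 for H2O2 without and with gRc. The fit takes the slope as the same in all groups and holds no term for base composition. What sets fragment length in these libraries was not tested.

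Zinc transporters were followed as 2 lists. Of 10 exporters and vesicle loaders of the Slc30 family, 7 had enough counts, and with H2O2 against vehicle 1 of the 7 rose, *Slc30a1*, and 0 fell, beside 7.81% and 7.84% of all genes tested. After gRc 2 of the 7 rose, beside 7.57% of all genes, *Slc30a1* and *Slc30a5*, a transporter of the secretory pathway (log2 fold change 0.57, SE 0.16, edgeR adjusted p = 0.0329, lost in 10 of 12 fits without 1 library). The median log2 fold change of the 7 was 0.24 and 0.26, against -0.06 and -0.04 over all genes tested.

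Of 14 importers of the Slc39 family, 10 were tested, and 1 rose and 1 fell in each comparison of H2O2, shares close to those of all genes tested (7.81% and 7.84% against vehicle, 7.57% and 8.15% after gRc). *Slc39a6*, a plasma membrane importer, rose from 96.3 ± 17.7 to 167 ± 11.02 CPM (log2 fold change 0.80, SE 0.15, edgeR adjusted p = 0.00587; 0.0628 with only the groups compared) and, after gRc, by 0.85 on the log2 scale (SE 0.15, edgeR adjusted p = 0.00406). *Slc39a13*, which releases zinc from vesicles, fell from 88.0 ± 13.3 to 50.8 ± 0.868 CPM (log2 fold change -0.79, SE 0.14, edgeR adjusted p = 0.00392) and after gRc the value was -0.62 (SE 0.14, edgeR adjusted p = 0.0132; 0.0583 without gRc+H2O2 replicate 3 and up to 0.133 with a GC correction). The other importers, among them *Slc39a1*, *Slc39a7* and *Slc39a14* at over 90 CPM, did not pass. Medians of the list were -0.22 and -0.16.

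A list of 12 genes known to respond to MTF-1 or zinc, with the 4 genes above among them, had 11 tested. In both comparisons of H2O2, 4 of the 11 rose, beside 7.81% and 7.57% of all genes tested, and 0 fell: *Mt1*, *Slc30a1*, *Gclc* and *Ndrg1*. *Mt1* and *Slc30a1* are the genes already described, and *Gclc* is also counted among the NRF2 target genes below. *Gclc*, the catalytic subunit of glutathione synthesis, rose from 39.2 ± 5.16 to 103 ± 14.7 CPM (log2 fold change 1.40, SE 0.16, edgeR adjusted p = 0.000416). *Ndrg1*, a stress and hypoxia gene, rose from 78.9 ± 2.904 to 272 ± 18.7 CPM (log2 fold change 1.79, SE 0.11, edgeR adjusted p = 1.09e-05). The iron exporter gene *Slc40a1* stood at 16.0 ± 1.08 and 16.1 ± 0.901 CPM and the zinc importer gene *Slc39a10*, which zinc is known to repress, at 13.2 ± 5.63 and 11.6 ± 2.41 CPM. The list's medians, 0.08 and 0.31, lay nearer to those of all genes than the values of its called members, and 7 of 11 did not pass.

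Copper, the other metal that metallothioneins hold, has its own handling genes, and 11 of a list of 12 were tested. In each comparison of H2O2 1 rose and 1 fell, shares close to those of all genes tested (7.81% and 7.84%, and 7.57% and 8.15% after gRc). *Sco2*, which delivers copper to cytochrome oxidase, rose (log2 fold change 1.32, SE 0.31, edgeR adjusted p = 0.0169, and 1.35 after gRc), with these calls lost in 3 and 2 of 12 fits without 1 library. *Slc31a2*, a copper transporter of inner membranes, fell (-0.66, SE 0.19, edgeR adjusted p = 0.0400, and -1.06 after gRc), though the first of these calls was lost in 9 of 12 fits without 1 library. The copper importer gene *Slc31a1*, the exporter gene *Atp7a* and the chaperone genes *Atox1* and *Ccs* did not pass in either comparison.

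Metallothionein genes are also known targets of other stress regulators, whose genes were read beside them. Of 10 target genes of NRF2, 8 rose with H2O2 and 9 after gRc, beside 7.81% and 7.57% of all genes tested, 0 fell, and the medians were 1.86 and 1.94. With 1 library left out, 7 to 10 rose in each comparison. *Gclc*, already counted in the list of MTF-1 and zinc-responsive genes, is counted here again. *Hmox1*, heme oxygenase, rose from 37.3 ± 20.7 to 275 ± 56.8 CPM, and *Srxn1*, which repairs peroxiredoxins, from 25.7 ± 3.06 to 158 ± 7.17 CPM. Of 6 heat shock genes, targets of HSF1, 0 passed in either comparison. Of 6 tested genes induced by glucocorticoids, *Klf9* was the 1 that rose, beside 7.81% of all genes (log2 fold change 1.06, SE 0.30, edgeR adjusted p = 0.0379, lost in 8 of 12 fits without 1 library) and rose after gRc together with *Sgk1* (1.36 and 0.96, lost in 1 and 5 of those 12 fits), while *Fkbp5*, *Tsc22d3* and *Per1* did not pass. In the comparisons of gRc with vehicle and of gRc+H2O2 with H2O2, and in the interaction, edgeR called 0 genes of any of these lists.

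**Figure D4:**
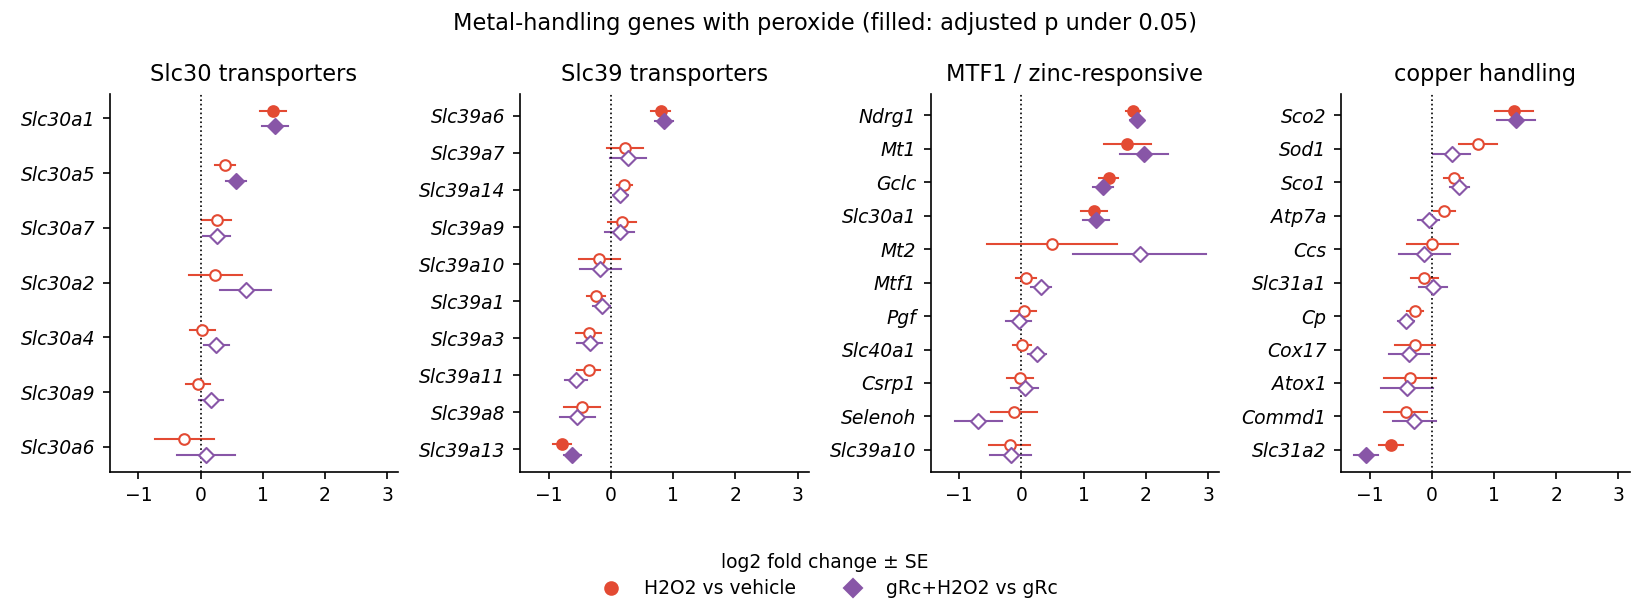
Log2 fold changes ± SE of the tested genes of 4 metal-handling lists, for H2O2 against vehicle (circles) and gRc+H2O2 against gRc (diamonds), with filled symbols for an adjusted p under 0.05. In the 2 transporter families *Slc30a1*, *Slc30a5* and *Slc39a6* are filled to the right of 0 and *Slc39a13* to the left, and most other genes lie near 0.

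Across the 12 libraries, the genes whose log2 CPM ran most like that of *Mt1*, among 10719 genes whose mean log2 CPM was 2 or more, were *Tlk2*, *Lyar*, *Hnrnpdl*, *Asns* and *Gnl2* (Pearson's r 0.99 each). *Asns*, asparagine synthetase, stood at 61.9, 157 and 115 CPM in vehicle and at 254, 404 and 304 CPM in H2O2, with vehicle replicate 1 and H2O2 replicate 1 lowest as for *Mt1*. *Mt2* ran most like *Zfp141*, *Rpp38*, *Slc48a1*, *Kat7* and *Utp4* (r 0.99 each). *Slc48a1*, a heme transporter, stood at 21.4, 45.5 and 117 CPM in vehicle and at 40.6, 36.2 and 108 CPM in gRc, with replicate 3 highest in both groups as for *Mt2*. *Mt1* and *Mt2* correlated with each other at 0.70, *Mt1* with *Slc30a1* at 0.78 and *Mt2* with *Slc30a1* at 0.33. In likeness to *Mt1*, *Mt2* ranked 1831 and *Slc30a1* 1281 among the 10719 genes. In likeness to *Mt2*, *Slc30a1* ranked 3938. These values describe libraries that share their treatment, depth and fragment length, and have no test.

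Neighbouring genes limit some of these values. *Mt2* overlaps the antisense gene *Gm45774* (at most 41 counts in a library), *Slc30a1* overlaps the antisense gene *1700034H15Rik* (at most 44), and the end of *Mtf1* overlaps *1110065P20Rik* on the other strand (at most 796). The kit keeps strand, but no source used here states how the counting treated strand, and the reads of such pairs may not be told apart.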

How the data were processed

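The authors sequenced poly(A) RNA of 12 libraries as paired ends on an MGI instrument. Per the study's methods and processing notes they trimmed reads with TrimGalore, aligned them with STAR 2.7.3a to GRCm38 and counted genes with RSEM 1.3.3 and Ensembl annotation. The deposited values used are the authors' expected counts, which RSEM does not normalise and which were rounded here to whole numbers. The authors' TPM and the deposited effective lengths served alternatives and levels between genes. FPKM was not used.

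Analyses used R 4.3.3, edgeR 4.0.16, limma 3.58.1 and DESeq2 1.42.0. edgeR's filterByExpr kept 14838 of 48795 genes (26103 had a count). All 12 libraries entered 1 quasi-likelihood fit with TMM factors and a mean per group (biological coefficient of variation 0.295), with Benjamini-Hochberg adjustment over all genes tested and a threshold of 0.05. The tests were checked on simulated counts with known changes, drawn independently for each library. Those counts held no drift with fragment length, so the check cannot show how the tests fare under it. Dividing the log2 fold change by the square root of its F statistic gave the SE. CPM use the same factors. Intervals cover 95%. Fragment length came from the deposited length minus effective length of genes.

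The genes and lists were chosen with earlier results of these data known. The rule for named genes took the 4 members in every comparison, *Mt3* and *Mt4*, of each list the genes past the threshold (at most 6), and for *Mt1* and *Mt2* the 5 genes of highest correlation. List genes named as not passing, *Hmox1* and *Srxn1* among the 8 called as examples, and *Asns* and *Slc48a1* as examples of the likeness were chosen after their values were seen. Alternatives were DESeq2, RLE size factors, no filter, at least 10 counts in every library, a fit of the compared groups alone, a replicate block, offsets from effective lengths, TPM in limma (log2 with a pseudocount of 0.5), no mitochondrial genes, a GC correction by spline (5 degrees of freedom) with and without the block, *Mt1* and *Mt2* summed, each library left out, 3 libraries left out together (vehicle 1 and 3, gRc 3) and, added after seeing the data, fragment length as a covariate. Deviations from the group means were correlated over genes between same-numbered libraries. The values were 0.46, 0.271 and 0.86 for gRc and vehicle, and 0.44, 0.294 and -0.283 for H2O2 and vehicle. For gRc+H2O2 they were 0.08, 0.402 and 0.309 with H2O2 and 0.021, -0.496 and -0.55 with gRc. Libraries of different numbers were not compared, so whether the numbers pair cultures was not tested. None of the libraries duplicated another. The counting's strand setting is not given in the sources used here.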

Additional observations from a re-analysis of the deposited data

How the results depend on the processing

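*Slc30a1* rose with H2O2 under all 13 other settings, from 0.94 to 1.23 against vehicle and from 1.08 to 1.22 after gRc (log2 fold change), and with any 1 library left out. *Mt1* rose with H2O2 after gRc under all 14 (1.88 to 2.06), 1 of them its sum with *Mt2*. Against vehicle it lost its call with only the groups compared (1.68, edgeR adjusted p = 0.0785), and leaving out 1 library gave 1.36 to 2.01. *Mt2* against vehicle passed with fragment length as a covariate (1.41), and ran from -0.03 to 2.52 without 1 library. *Mt1* and *Mt2* summed as 1 gene, most of it *Mt1* in every library, passed against vehicle (1.51, adjusted p = 0.0318 by edgeR) and after gRc (1.96). With H2O2 after gRc, *Mt2* itself passed with the covariate (2.85) and with the 3 libraries left out together (3.62). *Mtf1* after gRc passed with those 3 left out (0.48), a fit that called more genes there than the main one. Against vehicle *Mtf1* was -0.01 with limma and -0.00 to 0.18 without 1 library.

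Values that did not pass changed sign as follows. For gRc against vehicle, *Mt1* was -0.20 with the 3 libraries left out and -0.16 to 0.49 without 1. The fit without the 3 libraries leaves 1 vehicle library, taken to vary like the other groups in comparisons with vehicle and in the interaction. *Slc30a1* was 0.06 with the covariate and -0.35 to 0.09 without 1. *Mt2* was 0.36 with limma and -1.82 to 1.94 without 1, and *Mt1* and *Mt2* summed gave 0.13. For the interaction, *Slc30a1* was -0.08 with the covariate, -0.11 with the 3 libraries left out and -0.21 to 0.22 without 1, *Mt1* -0.03 to 0.62 and *Mt2* -0.62 to 3.14 without 1.

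With the replicate block, *Mt2* moved from 0.49 to 1.45 for H2O2 against vehicle and from 1.90 to 2.80 after gRc, and for gRc against vehicle it was 0.07, and 0.09 with the GC correction as well. The block changed no call of the 4 genes.

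Genes called for H2O2 against vehicle were 2323 and became 739 with only the groups compared, 1464 with limma, 5432 with the covariate and 1267 to 3108 without 1 library. After gRc they were 2332 and became 1551 with effective-length offsets, 1472 with limma, 5320 with the covariate, 5153 with the 3 libraries left out and 1186 to 3255 without 1. For gRc+H2O2 against H2O2, DESeq2 gave 2 and the covariate 1, and for the interaction 1 and 2. The cause was not tested for any of these. With 3 libraries per group, *Mt2* changes under its intervals could not be seen.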
